A study of Mus musculus with 4 samples.

Results

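Genes of mitosis and cytokinesis were followed in mouse P19 embryonal carcinoma cells, a teratocarcinoma-derived line that can be driven to form neurons by aggregation with retinoic acid. Members were taken by gene symbol from a list of 45 genes of the mitotic spindle, the kinetochore and cytokinesis. Matching by symbol uses no measured value, but the list, like the other gene lists below, was drawn up with earlier results of these data known. It is not independent of them. Of these, 42 had a probe set whose only annotated symbol was the member's, out of 8930 genes tested in all, and Ccnb1, Cdca8 and Spc24 had none and were not analysed here. A gene was represented by its probe set with the highest mean over all arrays, a choice that does use the measured values. The control group was unmodified P19 cells, and the experimental group was P19 cells that constitutively express human LIN28A, which binds RNA and keeps let-7 microRNA precursors from being processed. Cells of both groups spent 4 days as aggregates with all-trans retinoic acid at 5e-07 M. Each group has 2 arrays, which the labels number 1 and 2. The labels name neither the promoter that drives LIN28A nor whether the line is 1 clone, and they mention no empty-vector control.

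Mitosis begins when CDK1 bound to a B-type cyclin is switched on. Chromosomes are then compacted by condensin, and their centromeres carry kinetochores, protein plates that hold spindle microtubules. Kinases of the Polo, Aurora and checkpoint families time these steps, the anaphase promoting complex destroys cyclin and securin once all chromosomes are attached, and a contractile ring divides the cell. Most of these genes are transcribed late in the cell cycle and are low in cells that have stopped dividing, as neurons have, so their RNA in a bulk sample is widely used as a gauge of dividing cells. In such a sample fewer cells of a type and less RNA per cell cannot be told apart.

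Late cell cycle transcription is known to depend on a short promoter element, the cell cycle genes homology region or CHR, which binds the DREAM complex in resting cells and B-MYB and FOXM1 in dividing cells. It often stands close to CCAAT boxes, which bind NF-Y. The promoter stretches of members are shown because the members lay on the same side of the control together, and the kinetochore genes are given as the role with the highest median difference over all 4 arrays, with Mki67, Plk1 and Ccnb1 beside them. RefSeq promoters of build GRCm38.p6, each spanning 250 bases before to 50 after an annotated start, were found for 36 of the 45 members. The 150 bases just before the start are printed 5′ to 3′ on the gene's strand, in lower case, with matches in capitals. All motifs were searched on both strands, so a match may be printed as its reverse complement. The CHR was searched as TTTGAA and, as a variant, also as TTTAAA. The CCAAT box was searched as those 5 letters. The E2F site was searched as TTCCCGC and, as a variant of that site, also as TTGGCGC. In Ccnb1 an E2F match overlaps one of the CCAAT boxes. The stretches lie at chr5:30666736-30666885 on the plus strand for Cenpa, chr3:135212413-135212562 on the plus strand for Cenpe and chr1:189688087-189688236 on the minus strand for Cenpf. Those of Ndc80, Nuf2 and Spc25 lie at chr17:71526858-71527007 on the minus strand, at chr1:169531465-169531614 on the minus strand and at chr2:69206214-69206363 on the minus strand. That of Mad2l1 lies at chr6:66535071-66535220 on the plus strand, that of Mki67 at chr7:135716380-135716529 on the minus strand, that of Plk1 at chr7:122159285-122159434 on the plus strand and that of Ccnb1 at chr13:100786487-100786636 on the minus strand.
Cenpa: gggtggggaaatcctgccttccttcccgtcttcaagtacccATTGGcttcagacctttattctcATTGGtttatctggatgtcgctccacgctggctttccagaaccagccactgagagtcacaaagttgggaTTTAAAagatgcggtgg
Cenpe: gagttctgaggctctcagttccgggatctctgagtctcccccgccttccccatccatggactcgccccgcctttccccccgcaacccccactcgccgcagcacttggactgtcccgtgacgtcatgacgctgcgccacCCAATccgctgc
Cenpf: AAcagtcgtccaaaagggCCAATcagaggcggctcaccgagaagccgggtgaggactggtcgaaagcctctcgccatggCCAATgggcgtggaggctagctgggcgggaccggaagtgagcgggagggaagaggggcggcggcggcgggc
Ndc80: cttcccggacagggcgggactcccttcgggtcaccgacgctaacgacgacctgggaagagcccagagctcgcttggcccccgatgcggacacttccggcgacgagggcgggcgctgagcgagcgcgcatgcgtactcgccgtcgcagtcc
Nuf2: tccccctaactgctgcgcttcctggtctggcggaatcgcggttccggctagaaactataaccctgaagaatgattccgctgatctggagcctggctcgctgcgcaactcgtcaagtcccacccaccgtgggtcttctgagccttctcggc
Spc25: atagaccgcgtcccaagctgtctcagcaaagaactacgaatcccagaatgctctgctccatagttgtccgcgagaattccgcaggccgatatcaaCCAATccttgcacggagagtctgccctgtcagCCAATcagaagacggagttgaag
Mad2l1: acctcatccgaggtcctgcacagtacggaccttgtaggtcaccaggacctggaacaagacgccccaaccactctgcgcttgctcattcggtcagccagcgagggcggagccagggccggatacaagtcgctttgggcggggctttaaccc
Mki67: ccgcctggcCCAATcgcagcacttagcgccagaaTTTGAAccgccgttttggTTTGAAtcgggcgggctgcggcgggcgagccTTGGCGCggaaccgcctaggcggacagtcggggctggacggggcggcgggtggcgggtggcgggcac
Plk1: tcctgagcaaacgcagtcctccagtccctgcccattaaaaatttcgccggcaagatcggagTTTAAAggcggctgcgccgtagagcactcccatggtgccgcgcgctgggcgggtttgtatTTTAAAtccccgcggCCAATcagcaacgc
Ccnb1: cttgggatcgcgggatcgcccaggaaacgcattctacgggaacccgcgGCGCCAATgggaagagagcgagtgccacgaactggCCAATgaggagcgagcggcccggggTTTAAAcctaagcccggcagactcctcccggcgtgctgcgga

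A CHR match lay within the 300 bases in 30 of the 38 member promoters, or 78.9%, against 18.9% of the promoters of all genes tested and 27.6% of all 32851 promoters in the table. The 38 promoters belong to 36 members, because Ect2 and Prc1 each enter more than once through overlapping promoters that share their matches. A CCAAT box was found in 76.3% of member promoters and in 37.5% of those of all genes tested. Both elements together were found in 68.4% of member promoters and in 7.25% of those of all genes tested. E2F matches were less common, in 18.4% and 12.2%. In the stretches printed, Mki67 and Plk1 hold 2 CHR matches each. Counting from the start, the CHR match of Spc25 begins at base 25 and those of Ndc80 at bases 23 and 30, so none of them is printed. The same holds for CHR matches at base 17 in Cenpa, 15 in Cenpe, 3 in Cenpf and 31 in Plk1. The capital AA that opens the Cenpf stretch ends a CHR match at base -154. In Nuf2 and Mad2l1 none of the 3 motifs was found within 300 bases. Measured members with a CHR match had a median log2 difference between the lines of 0.49 (26 genes, 0.24 to 1.04), and those without one a median of 0.46 (8 genes, 0.016 to 0.70). The ranges of these groups of members overlapped.

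Values are array intensities in arbitrary units, and differences are on the log2(intensity + 16) scale, which understates the change of low genes. Intensities of different genes come from different probes and are not set against each other. They are added only in the sums over lists given below, where bright probe sets weigh most and genes too low to be tested are included. All 4 arrays had been scaled alike, with a trimmed mean of 150.1. Arrays correlated at r = 0.97 within each replicate number and at r = 0.93 and 0.94 within each line, across probe sets that are not independent replicates, so results are given within each number. The 3′ probe set of 18S ribosomal RNA read 331.4 and 146.1 in control and LIN28A of number 1, against 13.5 and 13.2 in number 2, and the 3′ to 5′ ratio of beta-actin ran from 2.76 in control 2 to 4.71 in control 1. The probe set of mouse Lin28a, no check of the human transgene, read 30.7 and 76.2 in control against 56.1 and 37.5 in LIN28A cells.

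The 42 mitotic genes of this list, as a set, lay higher in LIN28A cells than in control cells at day 4. Other mitosis genes, given further below, had a median difference of 0.21, with 0.02 in number 1. All 42 members had a mean difference above 0, against 45.1% of all genes tested. The members had a median of 0.46 and a range of 0.016 to 1.04, against a median of -0.04 over all genes tested. The median corresponds to a 1.38-fold higher intensity. In 31 of the 42 members, or 73.8%, the 2 LIN28A values both exceeded the 2 control values, against 11.5% of all genes tested. In 0 members did both lie below, against 16.6% of all genes. The members higher in both arrays included every kinesin and spindle assembly gene measured and 5 of 6 mitotic kinases, and the 11 others were Cdk1, Cdc25c, Foxm1, Nek2, Incenp, Cenpa, Cenpe, Cdc20, Pttg1, Top2a and Ect2.

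Within replicate number 1 the lines differed by a median of 0.31 over the members (39 of 42 above 0), and within number 2 by a median of 0.58 (42 of 42 above 0). Over all genes tested the medians were -0.08 and 0.01. In 39 members, or 92.9%, LIN28A lay above control in both numbers, against 25.7% of all genes, and 0 members lay below control in both, against 32.6%. Differences over 0.5 in both numbers were found in 5 members, or 11.9%, against 1.44% of all genes in that direction, and in 0 members in the other direction, against 2.74%. Those 5 were Spc25, Mki67, Plk1, Cenpf and Bub1b, and Mad2l1 fell just short at 0.495 in number 1. The members' differences in the 2 numbers were only loosely related (Pearson's r = 0.20 across 42 genes, and 0.23 across all genes tested, a description over genes that share the same arrays).

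**Figure D1:**
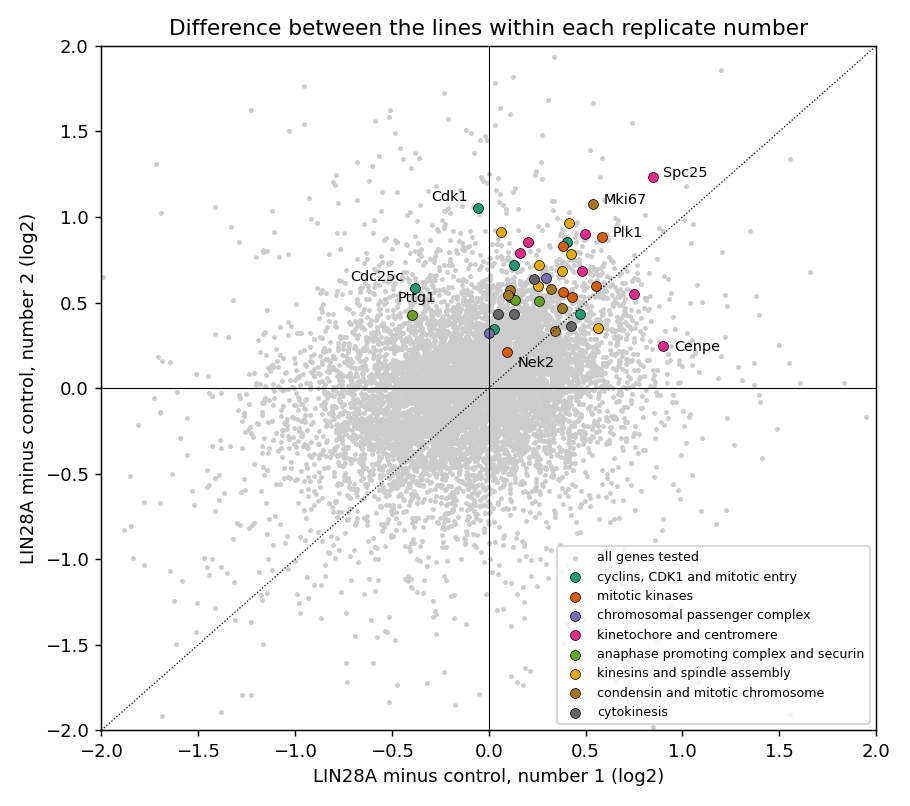
Difference between LIN28A and control (log2) within replicate number 1 (x axis) and number 2 (y axis); each coloured point is a mitotic gene by role, grey points are all genes tested, the dotted line marks equal differences, and genes beyond 2 on either axis are not shown. The mitotic genes sit to the upper right of the origin except Cdk1, Cdc25c and Pttg1, which lie left of 0, and most lie above the dotted line.

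No single member passed a test across all probe sets. At an adjusted p under 0.05 limma with Benjamini-Hochberg adjustment called 0 of 15838 probe sets higher (0%) and 0 lower (0%), and thus 0 members. At an unadjusted p under 0.05 it called 3 members, Spc25, Plk1 and Mki67, all higher (7.14%), against 0.442% of probe sets higher and 1.21% lower. With 2 arrays against 2, the smallest p that an exact two-sided permutation test of 1 gene can give is 0.333, so none was run. Control array 2 had the lowest of the 4 values for 36 of the 42 members and control array 1 for the other 6. The same count was not made over all genes. For control array 2 it cannot exceed the 49.8% of all genes in which control 2 lay below control 1. Whether the pattern is particular to the members was not tested. Without control array 2 the median difference was 0.27, with 8 members below 0, and without control array 1 it was 0.62, with 0 below.

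**Figure D2:**
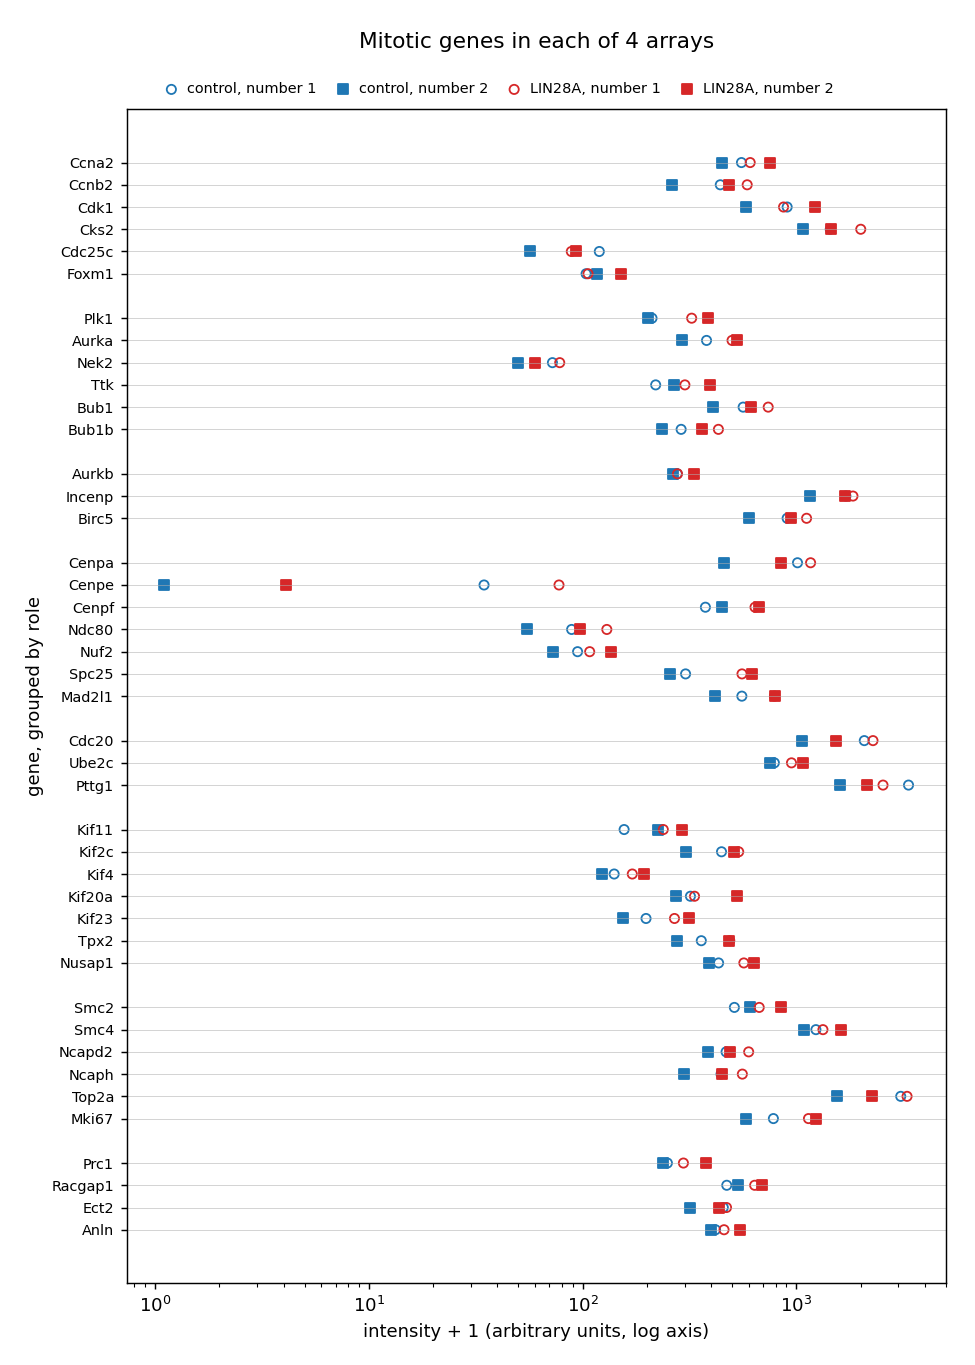
Intensity of each of 42 mitotic genes in the 4 arrays, plotted as intensity + 1 on a log axis, with genes grouped by role from cyclins (top) to cytokinesis (bottom); circles are number 1, squares number 2, blue is control and red LIN28A. Red points lie to the right of both blue points in 31 genes, and the blue square of control array 2 is the leftmost point in 36.

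Cyclins, CDK1 and its regulators drive entry into mitosis. All 6 measured genes of this role had a mean difference above 0 (median 0.44), against 45.1% of all genes tested. In both arrays 3 of the 6 were higher, against 11.5% of all genes. Their median was 0.08 in number 1 and 0.65 in number 2, and it was 0.25 without control array 2 and 0.27 without LIN28A array 2. Ccnb2, a B-type cyclin, read 440.1 and 259.9 in control arrays 1 and 2 and 588.5 and 481.7 in LIN28A arrays 1 and 2 (log2 difference 0.63 ± 0.36 SE). Both LIN28A arrays exceeded both control arrays, but LIN28A 2 only slightly exceeded control 1. Ccna2, the cyclin of S phase and early mitosis, read 553.2 and 450.0 in control against 607.8 and 752.6 in LIN28A cells, and its other probe set differed by 0.68 against 0.43 at the brighter one. The CDK1-binding subunit gene Cks2 read 1441.7 and 1073.8 against 2002.6 and 1455.1, with control 1 and LIN28A 2 almost level, and its dimmer probe set differed by 0.19.

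Cdk1 itself, the kinase that these cyclins bind, read 905.7 and 581.9 in control against 871.0 and 1224.7 in LIN28A cells. The lines were level in number 1 (difference -0.06) and apart in number 2 (1.05), so the groups overlapped. Cdc25c, the phosphatase that activates CDK1, read 118.8 and 55.8 against 87.6 and 91.7, and its difference was -0.38 in number 1 and 0.58 in number 2. The 2 LIN28A values lay between the 2 control values, and the mean difference was 0.10 ± 0.38 SE. Foxm1, the transcription factor of late cell cycle genes, read 102.9 and 115.3 against 105.1 and 150.9, and differed by 0.19 here; 2 dimmer probe sets gave 0.35 and 0.22.

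Mitotic kinases had a median difference of 0.53, with 0.41 in number 1 and 0.58 in number 2. In both arrays 5 of 6 were higher, against 11.5% of all genes. Plk1, the Polo-like kinase of centrosomes, kinetochores and cytokinesis, read 210.4 and 201.3 in control against 323.1 and 384.6 in LIN28A cells (0.73 ± 0.28 SE). The control arrays were nearly level and both LIN28A arrays stood clear of them. Aurka, the Aurora kinase of the spindle poles, read 379.4 and 290.6 against 499.6 and 529.6. Bub1b, which encodes the checkpoint protein BUBR1, read 288.3 and 234.0 against 431.3 and 361.7, and its difference was nearly the same in both numbers (0.56 and 0.60). The lines did not overlap for Aurka or Bub1b.

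Bub1, a checkpoint kinase at the kinetochore, read 563.3 and 408.6 in control against 738.3 and 610.0 in LIN28A cells, with no overlap, and its dimmer probe set differed by 0.39 against 0.47. Ttk, the kinase MPS1 that starts checkpoint signalling, read 218.9 and 267.2 against 300.3 and 394.1, also with no overlap. Nek2, a kinase that separates centrosomes, was the exception of this role. It read 71.3 and 49.0 against 77.2 and 59.1, the groups overlapped, and the difference was 0.15 ± 0.31 SE.

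Chromosomal passenger complex genes encode the complex that corrects wrong attachments and later moves to the midzone. The 3 measured genes had a median difference of 0.32, with 0.11 in number 1 and 0.54 in number 2. Leaving out control array 2 gave 0.13, and leaving out control array 1 gave 0.59. Birc5, which encodes survivin, read 905.6 and 599.3 in control against 1116.8 and 947.1 in LIN28A cells, with no overlap. Aurkb, its kinase, read 276.4 and 263.2 against 277.1 and 333.1, so the lines were level in number 1, and its other probe set differed by 0.20. Incenp, the scaffold, read 1706.3 and 1164.9 against 1841.2 and 1695.2, where LIN28A 2 lay just under control 1. A second Incenp probe set differed by 0.59 with no overlap, and a dim one, at 11.4 to 26.7, by -0.31.

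All 7 kinetochore and centromere genes measured lay above 0 in both numbers, against 25.7% of all genes. They had a median difference of 0.58, with 0.50 in number 1 and 0.79 in number 2. This was the highest median of the 8 roles over all 4 arrays, an order that was not tested and that turned without control array 2, where it was 0.31 against 0.43 for kinases, 0.42 for kinesins and 0.33 for cytokinesis genes. Without control array 1 it was 0.90. The NDC80 complex, which grips the microtubule end, is made of NDC80, NUF2, SPC24 and SPC25. Spc25 read 302.5 and 254.4 in control against 556.3 and 619.2 in LIN28A cells, the largest difference of all members (1.04 ± 0.29 SE). It exceeded control in both numbers by 0.85 and 1.23, and its dimmer probe set, at 6.2 to 18.8, differed by 0.23. Ndc80 read 87.9 and 54.2 against 128.9 and 96.7, and Nuf2 read 93.8 and 71.6 against 107.0 and 135.3. Neither overlapped between the lines, and both differed less in number 1 (0.48 and 0.16) than in number 2 (0.68 and 0.79).

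Mad2l1, the checkpoint protein that holds back anaphase, read 555.5 and 417.0 in control against 789.7 and 794.0 in LIN28A cells (0.70 ± 0.30 SE), with the LIN28A arrays almost equal and well above control. Cenpf, a large protein of the outer kinetochore, read 374.8 and 449.7 against 640.2 and 665.2 (0.65 ± 0.28 SE), also well apart, while its dimmer probe set, at 28.7 to 38.7, differed by 0.004. Cenpa, the histone variant that marks centromeres, read 1012.7 and 459.9 against 1166.2 and 845.1. The lines overlapped there because control 1 exceeded LIN28A 2, and the number 2 difference (0.86) was larger than that of number 1 (0.20). Cenpe, the kinesin that carries chromosomes to the spindle equator, read 33.6 and 0.1 against 76.6 and 3.1. Both number 2 arrays were near 0 for Cenpe, so its difference of 0.57 ± 0.86 SE rested on low values.

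The anaphase promoting complex regulators and securin had a median difference of 0.32, with 0.13 in number 1 and 0.51 in number 2. Ube2c, the ubiquitin-conjugating enzyme of the complex, read 788.9 and 751.2 in control against 948.9 and 1075.9 in LIN28A cells, with no overlap. Cdc20, its activator, read 2080.7 and 1066.5 against 2285.2 and 1531.1, and overlapped because control 1 was high, and its 2 dimmer probe sets differed by 0.37 and 0.62. Pttg1, which encodes securin, read 3351.6 and 1597.2 against 2545.6 and 2153.0. Control 1 was the highest array for Pttg1 and control 2 the lowest, which gave -0.39 in number 1, 0.43 in number 2 and a mean of 0.016, the smallest of all members. Its dimmer probe sets differed by 0.26 and 0.19. The median of this role was -0.15 without control array 2, 0.04 without LIN28A array 1 and 0.55 without control array 1.

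Kinesins and spindle assembly genes had a median of 0.49, with 0.38 in number 1 and 0.72 in number 2. All 7 were higher in both arrays, against 11.5% of all genes. Kif23, the kinesin of the central spindle, read 197.2 and 153.7 in control against 268.3 and 315.4 in LIN28A cells (0.69 ± 0.30 SE), and its dimmer probe set differed by 0.50. Tpx2, which activates Aurora A on the spindle, read 358.5 and 275.2 against 487.5 and 484.5, and its other probe set differed by 0.74 against 0.60. Nusap1, a microtubule bundling protein, read 432.2 and 389.2 against 567.5 and 635.2. In each of these 3 genes the LIN28A arrays stood clear of control in both numbers.

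Kif11, the motor that pushes spindle poles apart, read 155.5 and 224.7 in control against 237.7 and 290.8 in LIN28A cells, and unlike most members it was lower in control 1 than in control 2. Kif20a, a kinesin needed for cytokinesis, read 318.8 and 271.4 against 333.2 and 525.8, so nearly all of its difference lay in number 2 (0.06 and 0.91). Kif2c, the microtubule-depolymerising kinesin MCAK, read 446.0 and 303.4 against 536.9 and 509.8. Kif4, a chromosome-bound kinesin, read 139.6 and 122.6 against 169.9 and 193.9. The groups did not overlap for any of these 4 genes, but a dim probe set of Kif11 (-0.31) and one of Kif2c (-0.56) went the other way, each with its largest value in control 2. Their remaining probe sets past the filter differed by 0.37 for Kif11 and by 0.44 and 0.05 for Kif2c. The dim second probe set of Nusap1, at 4.1 to 17.8, differed by -0.03.

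Condensin and mitotic chromosome genes had a median of 0.38, with 0.33 in number 1 and 0.56 in number 2, and of 0.22 without control array 2 and 0.60 without control array 1. Mki67, the Ki-67 protein that coats mitotic chromosomes, read 780.7 and 579.9 in control against 1139.9 and 1239.1 in LIN28A cells (0.81 ± 0.30 SE), the second largest difference of the members. Top2a, topoisomerase II of dividing cells, read 3081.0 and 1553.4 against 3299.1 and 2272.2. Its arrays followed the replicate number, with both number 1 arrays above both number 2 arrays, and LIN28A exceeded control in each number by 0.10 and 0.54. Among the condensin subunits Smc2 read 512.4 and 606.8 against 670.1 and 845.5, and Smc4 read 1235.1 and 1084.4 against 1332.2 and 1624.5. Ncapd2 read 468.6 and 383.4 against 597.9 and 486.4, and Ncaph read 443.7 and 296.3 against 558.5 and 450.6. All 4 condensin genes were higher in both arrays without overlap, against 11.5% of all genes, although LIN28A 2 and control 1 were close for Ncapd2 and Ncaph. Smc4 also has a probe set that read 1098.8 and 154.8 against 2153.7 and 68.8, with opposite differences in the 2 numbers. The last probe set of Smc4 differed by 0.50, and the dimmer one of Ncaph by 0.36.

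Cytokinesis genes had a median of 0.34, with 0.18 in number 1 and 0.43 in number 2. Prc1, which bundles midzone microtubules, read 248.5 and 237.3 in control against 295.5 and 377.4 in LIN28A cells, and its other probe set differed by 0.76 against 0.44. Racgap1, the partner of KIF23 in centralspindlin, read 472.0 and 534.0 against 637.9 and 690.6. Both stood apart from control without overlap at these probe sets, and the other probe set of Racgap1 differed by 0.34. Anln, the anillin of the contractile ring, read 418.1 and 399.2 against 458.3 and 545.5, and Ect2, the exchange factor that activates RhoA there, read 454.7 and 316.7 against 470.8 and 432.7. Anln did not overlap between the lines and Ect2 did.

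**Figure D3:**
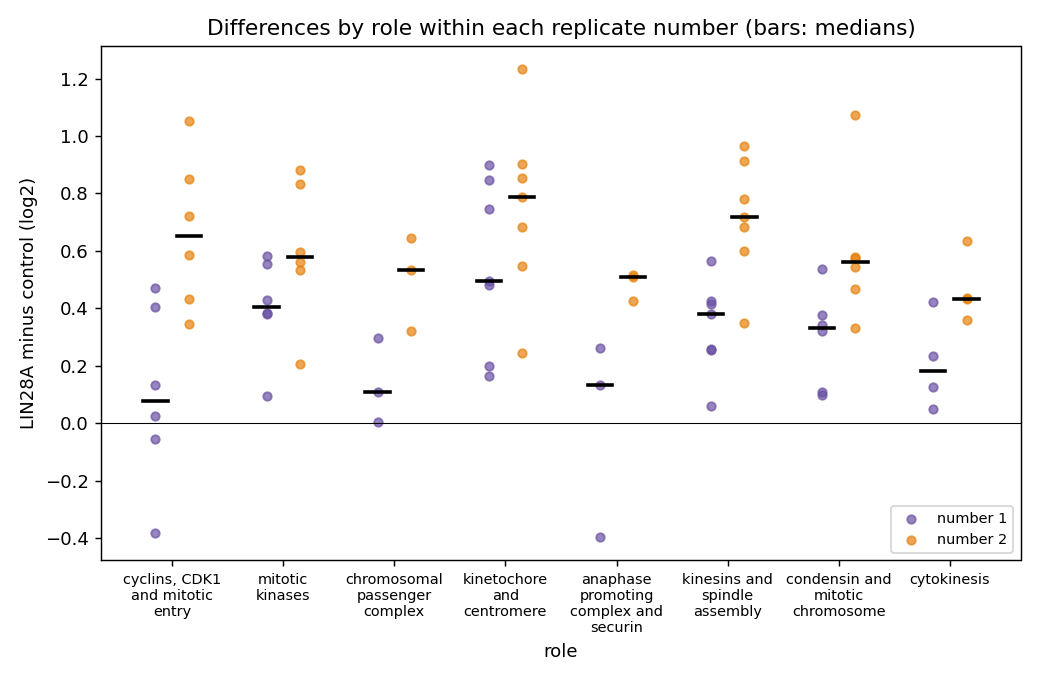
Difference between LIN28A and control (log2) by role, with number 1 in purple, number 2 in orange, a point per gene and black bars for medians. Number 2 has the higher median in all 8 roles, and the kinetochore genes have the highest medians in both numbers (0.50 and 0.79).

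The difference between the lines was larger in number 2 than in number 1 for 36 of 42 members, against 58.9% of all genes tested. In control cells number 2 lay below number 1 for 36 members, against 49.8% of all genes, with a median of -0.35 against 0.0006. In LIN28A cells number 2 lay below number 1 for 18 members, against 41.8% of all genes, with a median of 0.07 against 0.10. Replicate number 1 of the control therefore read closer to the LIN28A arrays than number 2 did, for this set. Lower control values in number 2 were also found in 2 lists given below. They were found for 45 of 65 other mitosis genes (median -0.18) and 31 of 44 DNA replication genes (median -0.22). In LIN28A cells the medians of these lists were 0.07 and -0.22. The 18S reading and the beta-actin 3′ to 5′ ratio were both highest in control 1. So was the BioB control probe set, at 344.3 against 111.1 in control 2 and 175.9 and 107.4 in LIN28A cells. The part of these readings in the result was not tested.

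**Figure D4:**
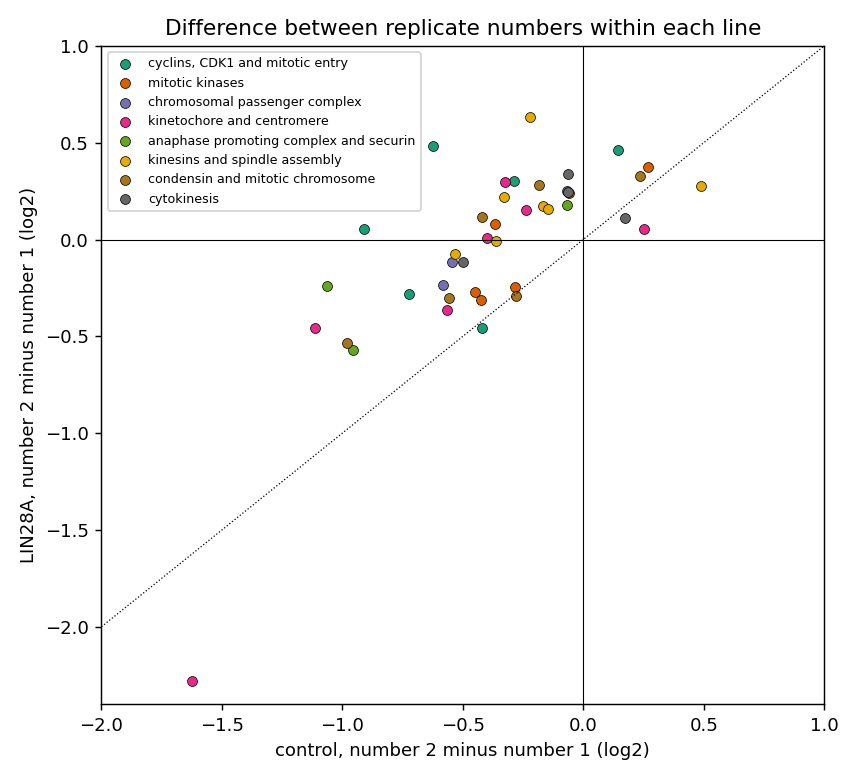
Number 2 minus number 1 (log2) in control cells (x axis) and in LIN28A cells (y axis) for each mitotic gene, coloured by role; the dotted line marks equal values. Most genes lie left of 0 and above the dotted line, with Cenpe at the lower left.

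Where a member had several probe sets past the filter, they mostly pointed the same way. Of 69 such probe sets, 64 lay above 0 and 5 below, and 14 of the 19 members with several had all of them above 0. The exceptions were Incenp, Kif11, Kif2c, Nusap1 and Smc4. For 7 members the brightest probe set carries an s or x in its name, which marks probes that can match other transcripts, so their values are uncertain in that respect, and 4 of these were higher in both arrays, against 27 of the other 35.

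Other mitosis genes were read from a longer list. Of 65 measured, 49 had a mean difference above 0, against 45.1% of all genes tested. Their median was 0.21, with 0.02 in number 1 and 0.27 in number 2. In number 1, 35 of the 65 lay above 0, against 3676 of all 8930 genes, and in number 2, 51 did, against 4613. In both arrays 9 of 65 were higher, near the 11.5% of all genes, and 4 were lower, against 16.6%. By limma 0 passed at an adjusted p under 0.05, and 0 had an unadjusted p under 0.05. The 6 with the smallest p were Mybl2, Ccnf, Ncapg, Aspm, Psrc1 and Ube2s. Mybl2, the B-MYB transcription factor, read 51.2 and 42.8 in control against 78.4 and 91.3 in LIN28A cells. Ncapg, a condensin subunit, read 227.1 and 148.5 against 297.9 and 290.0. Ccnf, the cyclin F gene, differed by 0.56 and Aspm, a spindle pole protein gene, by 0.51, both without overlap. Psrc1, a spindle protein gene, lay lower in both LIN28A arrays at 351.7 and 248.5 against 398.0 and 399.5. Ube2s, which extends ubiquitin chains for the anaphase promoting complex, read 129.6 and 803.0 against 444.4 and 1297.2 and overlapped.

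DNA replication genes, which act before mitosis, had 43 of 44 measured genes above 0, against 45.1% of all genes tested, with a median of 0.34 that was 0.35 in number 1 and 0.38 in number 2. Of them, 25 were higher in both arrays, against 11.5% of all genes, and 0 were lower, against 16.6%. By limma 0 passed at an adjusted p under 0.05, and 1, higher, had an unadjusted p under 0.05, against 0.442% of probe sets. Dut, the dUTPase gene, read 523.3 and 313.7 in control against 826.1 and 700.2 in LIN28A cells (0.88 ± 0.35 SE). Pola1, a DNA polymerase subunit gene, differed by 0.62, Rrm1 by 0.69 and Cdc45, a subunit of the replicative helicase, by 0.61, all without overlap. Whether the members differed from the other mitosis genes or from the replication genes was not tested.

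**Figure D5:**
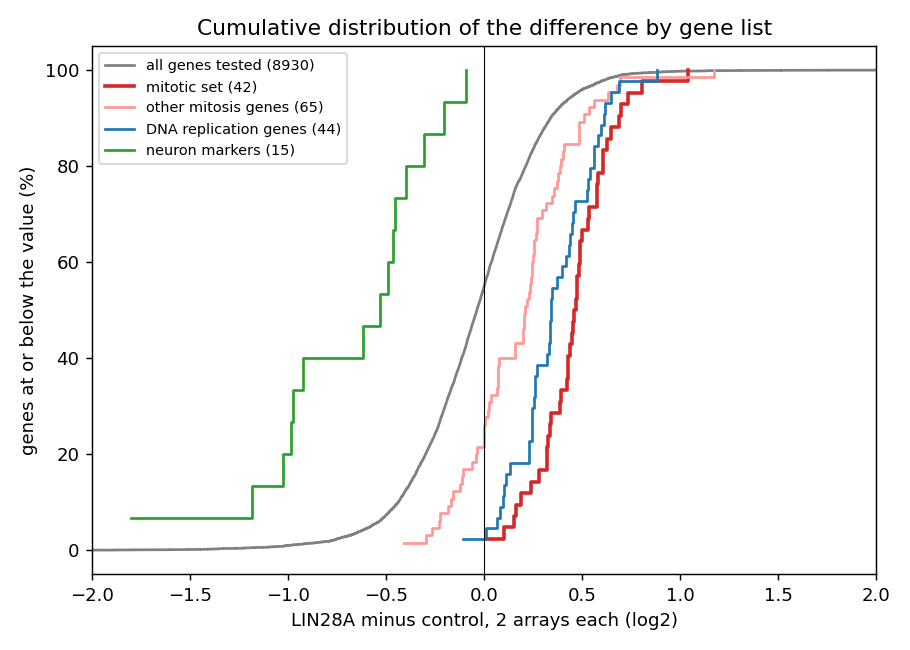
Share of genes (y axis, percent) at or below each difference between the lines (x axis, log2) for all 8930 genes tested, the 42 mitotic genes, 65 other mitosis genes, 44 DNA replication genes and 15 neuron markers; values beyond 2 are not shown. The curve of the mitotic genes lies right of 0 throughout and that of the neuron markers left of 0 throughout.

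Markers of cell types that such cultures can hold were read beside the mitotic genes. Of 16 neuron markers, 15 passed the filter and all of those had a mean difference below 0 (median -0.53, with -0.51 in number 1 and -0.62 in number 2), and of these 5 were lower in both arrays, against 16.6% of all genes, and 0 higher, against 11.5%. The summed intensity of all 16 was 5409.8 and 8369.2 in control against 3086.1 and 5779.0 in LIN28A cells, so the sums of the lines overlapped, with LIN28A lower within each number. Stmn3, a neuronal microtubule protein gene, read 1012.4 and 1256.3 against 760.1 and 789.3, and the neurofilament gene Nefm read 759.9 and 1136.0 against 370.2 and 963.6. Summed over the 42 mitotic genes, the intensity was 27026.9 and 18868.2 in control against 31173.3 and 29309.7 in LIN28A cells. The part of the neuron markers in the mitotic result was not tested.

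Neural progenitor markers lay on both sides of 0 (11 measured, 6 above 0, median 0.04), and the replicate numbers differed. Their median was 0.11 in number 1, with 7 of 11 above 0, and -0.48 in number 2, with 2 of 11 above 0. Of all 8930 genes tested, 3676 lay above 0 in number 1 and 4613 in number 2. The progenitor sums were 9359.0 and 10675.1 in control against 9484.4 and 7795.1 in LIN28A cells. They were led by Vim at 4084.5 and 4164.9 against 3682.1 and 2982.6 and Sox2 at 1902.3 and 1697.3 against 1557.0 and 1294.6. These are the 2 brightest of the list, and they were the only 2 of the 11 lower in both arrays, against 16.6% of all genes. Hes5, chosen after its values were seen, read 185.6 and 194.3 against 924.2 and 337.2. It was the only 1 of the 11 higher in both arrays, against 11.5% of all genes. Pluripotency markers (9 of 12 listed past the filter) had a median of -0.20 (-0.53 in number 1, with 2 of 9 above 0, and 0.71 in number 2), and sums of 281.5 and 460.6 against 310.0 and 1037.1. Within that list Pou5f1 read 30.3 and 374.2 against 28.7 and 775.2, and Sall4 16.4 and 2.1 against 194.2 and 83.1, while Zfp42 and Tdgf1 lay under the filter. Fibroblast and smooth muscle markers (7 of 12 past the filter, all above 0 in the mean, with medians of -0.006 in number 1, where 3 of 7 lay above 0, and 0.84 in number 2) summed to 323.1 and 155.3 against 347.4 and 528.6, with Acta2 at 74.7 and 40.9 against 142.5 and 98.9, Dcn at 102.8 and 41.8 against 45.3 and 152.5, and Col1a1, Thy1, Postn, Cnn1 and Myh11 under the filter. Endoderm markers (4 of 9 past the filter) summed to 546.4 and 437.5 against 435.8 and 913.5, with Sparc at 396.3 and 352.0 against 277.5 and 563.3, Lamb1 at 83.8 and 45.6 against 106.8 and 272.7, and Gata4, Sox17, Foxa2, Afp and Ttr under the filter. Glial markers (4 of 9) summed to 336.1 and 363.4 against 229.2 and 344.9, with Mbp at 161.9 and 237.2 against 97.3 and 205.1, Slc1a3 differing by 0.18, and S100b, Aqp4, Olig2 and Sox10 under the filter. In number 1 the higher pluripotency sum came with a median below 0 and rested on Sall4, and the higher fibroblast and smooth muscle sum rested on Acta2. The part of these lists in the mitotic result was not tested either.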

How the data were processed

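Total RNA of P19 cells, 4 samples in all, was measured on 1-colour Affymetrix arrays, after oligo(dT)-primed cDNA and biotin-labelled cRNA, per the labels' protocols. The authors deposited 1 table of 22690 probe sets with linear intensity values, already scaled (a mean trimmed by 2% at each end of 150.1 in every array), with the summarising software not given in the sources used here. All 4 columns of values were used. The 64 control probe sets were left out of tests, as was any probe set whose mean log2(intensity + 16) lay under the 30th percentile, which left 15838. Of the probe sets other than controls, 20380 had 1 symbol in the platform annotation, 691 several and 1555 no entry. Lines were compared with limma 3.58.1 in R 4.3.3 (lmFit, eBayes, no block), adjusted by Benjamini-Hochberg over all probe sets. The fit was tested on simulated data whose changes were larger than that of any member. That test therefore does not cover changes of the members' size. The labels do not say whether repeats were grown separately. The p-values therefore measure only array-to-array spread, possibly technical, and the number of arrays limits the precision. Every member was named, with the other mitosis and replication genes of smallest p and the 2 brightest markers of each list. The members and lists were chosen with earlier results of these data known. The alternatives were the replicate block, quantile normalization, median centring, pseudocounts of 1 and 64, other filters, averaged probe sets and leaving out each array.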

Additional observations from a re-analysis of the deposited data

How the results depend on the processing

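All 42 members kept a mean difference above 0 under every setting that kept all 4 arrays (41 of 41 with the filter at the 50th percentile, which dropped Cenpe). The number higher in both arrays ran from 26 (probe sets averaged) to 31 there, against 10.0% (no filter) to 19.9% (median centring) of all genes. The members' median ran from 0.39 (pseudocount 64) to 0.59 (median centring). Median centring moved the median of all genes from -0.04 to 0.09, and the members stood 0.50 above it in both cases. It also moved the shares of all genes higher and lower in both arrays to 19.9% and 9.03%, the number 1 median to 0.51 and the kinase median to 0.66. The count past 0.5 in both numbers moved to 17, against 3.23% of all genes. That count was 8 with a pseudocount of 1, against 2.50% of all genes, and 3 with 64, against 0.56%.

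Without 1 array, the medians ran from 0.27 to 0.62 for all members, 0.25 to 0.62 for cyclins, 0.13 to 0.59 for the passenger complex and 0.43 to 0.71 for kinases. They ran from 0.31 to 0.90 for kinetochore genes, -0.15 to 0.55 for the anaphase promoting complex genes and 0.22 to 0.60 for condensin. In these fits 0 to 2 members were lower in every array kept (Cdc25c and Pttg1, without control 2), against 30.6% to 40.6% of all genes. The lowest and highest values of members that changed sign were -0.061 and 0.36 (Nek2), -0.57 and 1.71 (Cenpe), -0.51 and 0.55 (Pttg1), -0.045 and 0.42 (Foxm1), -0.35 and 0.56 (Cdc25c), -0.028 and 1.08 (Cenpa), -0.15 and 0.80 (Cdc20), -0.17 and 0.81 (Top2a) and -0.010 and 0.49 (Ect2). Of these, 8 changed sign without control 2, 3 without LIN28A 1 and 1 without LIN28A 2. Such fits leave unequal replicate numbers between the lines; the cause was not tested.

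Same-numbered arrays deviated together (r = 0.62 over probe sets, 0.74 over members), but share only a number. With the replicate block, limma called 1 probe set higher and 0 lower, and 0 members; 12 members had an unadjusted p under 0.05, against 2.95% of probe sets higher and 5.62% lower. The block with quantile normalization called 3 probe sets higher, 0 lower and 0 members. Without the block, the probe sets at an unadjusted p under 0.05 numbered 70 higher and 192 lower, against 167 and 107 with median centring and 123 and 167 with quantile normalization.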
